A study of Homo sapiens with 6 samples.

Results

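The transcriptomes of HCT116 and SW480 cells carrying a non-targeting short hairpin RNA (shRNA) were compared, 1 library a side, from a series of 6 libraries. The pair was set by its cell line and treatment labels, and no measured value entered that rule. Earlier results of these data were known when the comparison was chosen. Of the 6 libraries, 2 are compared here. The series covers 3 established colorectal cancer lines, HCT116, HT29 and SW480, each with a control library and a library with an shRNA against BZW2, a relative of translation initiation factor eIF5. All cells, controls included, had been infected with an shRNA lentivirus and selected with puromycin at 1 µg/ml. The HCT116 control is titled as HCT116WT. Nothing in the labels says whether selected cells were pools or clones. With 1 library per line and treatment there was no spread between cultures to measure, no test was made, and each difference below is a difference between these libraries.

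HCT116 and SW480 are widely used epithelial models of colorectal cancer. HCT116 is known for an activating CTNNB1 mutation, deficient mismatch repair and a near-diploid karyotype. SW480 is known for truncated APC, intact mismatch repair, an aneuploid karyotype and vimentin (VIM) expression that is high for a carcinoma line. HT29, given beside them for scale, also has truncated APC.

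Gene levels were read counts recovered from the deposited normalised values, scaled between libraries by trimmed mean of M values (TMM) and given as CPM, reads per 1e6 scaled reads. The HCT116 control had 5640626 reads over its listed genes and the SW480 control 5078001. A total of 11796 genes were listed in both lines, and in 11180 of them the higher library reached 5 CPM or more. These genes are called counted below. A log2 ratio is that of HCT116 over SW480 unless another pair is named, with a prior count of 2, and positive values are higher in HCT116. Fold differences come with an exact Clopper-Pearson 95% interval that covers counting error only.

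The library labelled SW480 control and the library labelled HCT116 control had nearly the same expression profile, although their labels name different lines. Of the 11180 counted genes, 263 (2.35%) were at least 2-fold apart, 119 (1.06%) higher in HCT116 and 144 (1.29%) higher in SW480. The whole counting interval lay past 2-fold for 19 genes (0.17%) higher in HCT116 and 55 (0.492%) higher in SW480, and it left out equality for 18.6% and 20.3% of genes. By the 2-fold rule 3124 of 10530 genes (29.7%) were at least 2-fold apart between the HCT116 and HT29 controls, and 3074 of 10539 (29.2%) between the HT29 and SW480 controls. The log2 ratio between the HCT116 and SW480 controls had an SD of 0.40 across genes, against 1.14 for HCT116 over HT29 and 1.16 for HT29 over SW480. Because of this the libraries are called the HCT116-labelled and the SW480-labelled control. Which line each library came from was not tested: genotypes in the reads were not analysed here, and every difference below is read as a difference between libraries with these labels.

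**Figure D1:**
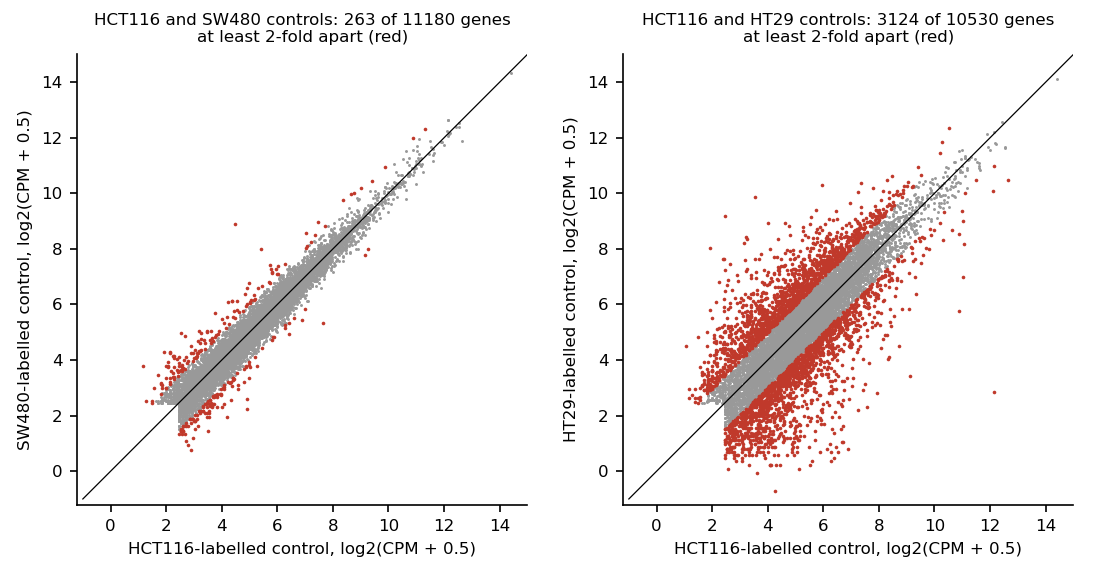
Level of each gene in the HCT116-labelled control (horizontal axis, log2 of CPM + 0.5) against the SW480-labelled control (left) and the HT29-labelled control (right), 1 point per gene whose higher library reached 5 CPM, red where at least 2-fold apart. The left cloud lies close to the line of equality, with 263 of 11180 genes in red, and the right cloud is broad, with 3124 of 10530 in red.

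The same order held over all 15 pairs of the 6 libraries, scaled jointly over 10875 genes listed in all 3 lines. The HCT116-labelled and SW480-labelled controls were the closest pair, with 1.93% of 10378 genes at least 2-fold apart, an SD of 0.39 on the log2 scale and a Pearson correlation of 0.973 across genes. Genes are not independent replicates, so the correlation is a description of these libraries. The next closest pair was the HT29 control and the HT29 BZW2 shRNA library, with 9.51% of genes at least 2-fold apart. The SW480-labelled control was farther from the SW480 BZW2 shRNA library, its own line by label, at 11.3%, than from the HCT116-labelled control. The HCT116-labelled control stood at 11.1% from the SW480 BZW2 shRNA library and at 55.6% from the HCT116 BZW2 shRNA library, which stood apart from every other library. The control libraries were not copies of each other either. The median chi-square of their counts per gene was 2.43, where sampling noise alone gives 0.455, and the same measure was 22.01 between the HCT116 and HT29 controls.

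**Figure D2:**
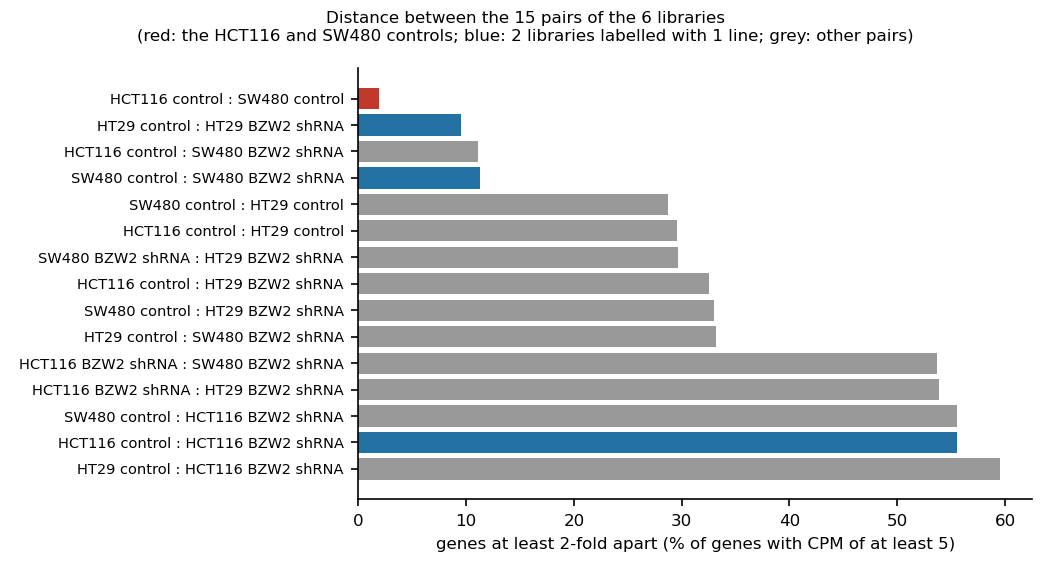
Share of genes at least 2-fold apart (horizontal axis, percent of genes whose higher library reached 5 CPM) for each of the 15 pairs of libraries. The bar of the HCT116 and SW480 controls (red, 1.93%) is the shortest, below the pairs labelled with 1 line (blue, 9.51%, 11.3% and 55.6%).

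Between the 3 lines, 921 genes were listed in HCT116 and SW480 and not in HT29, against 100 listed in HCT116 and HT29 and not in SW480, and 207 listed in SW480 and HT29 and not in HCT116. Of the genes not listed in HT29, 756 were counted in the 2 controls compared here, and 65 of them (8.6%) were at least 2-fold apart, beside 2.35% of all counted genes. Of the 199 among them at a CPM of at least 20 in the HCT116-labelled control, 186 were within 2-fold of it in the SW480-labelled control. The protocadherin PCDH7 led them with 2113 reads (370 CPM) in the HCT116-labelled and 1935 reads (387 CPM) in the SW480-labelled control. HLTF, a helicase-like chromatin remodeller, was at 360.4 and 354 CPM. PHLDB2, a protein of the cell cortex, was at 329 and 326 CPM. The synaptic vesicle calcium sensor SYT1 was at 326 and 357 CPM. These genes were chosen for being high in the HCT116-labelled control and unlisted in HT29, after their values were seen.

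Germline genes, silent in most adult tissues and switched on in some cancer lines, were also close. The cancer testis antigen MAGEB2 was at 149 CPM in the HCT116-labelled and 138 CPM in the SW480-labelled control. MAGEA3, of the same family on chromosome X, was at 83.2 and 91.6 CPM, and PRAME was at 23.8 and 29 CPM. None of these 3 germline genes was listed in HT29. In the other direction, 32 genes reached a CPM of at least 20 in the HT29 control and were not listed in HCT116. Of these, 18 were listed in SW480, at 10.2 CPM or less in its control.

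**Figure D3:**
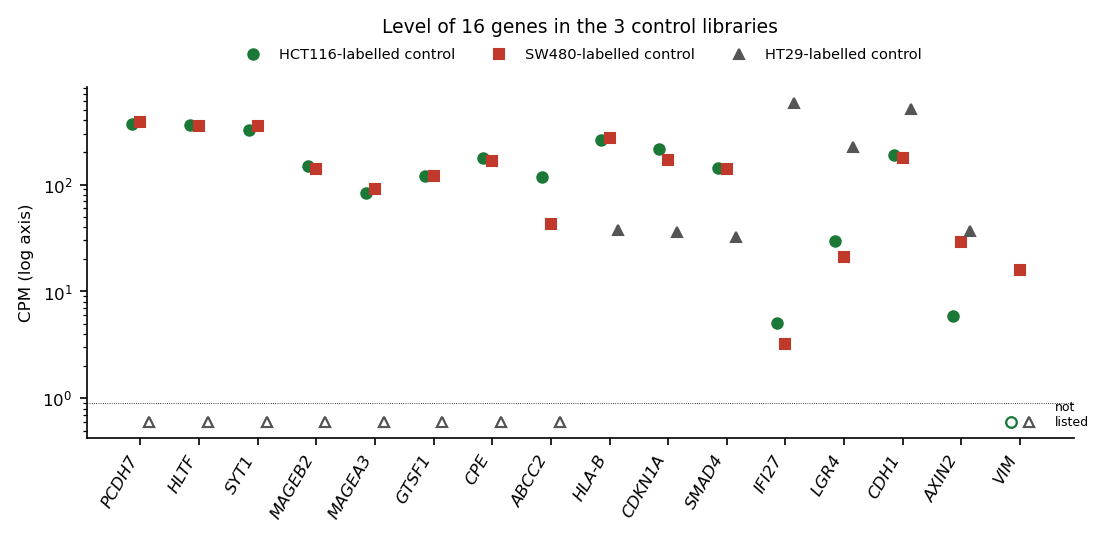
CPM (log axis) of 16 genes in the 3 control libraries, with open symbols below the dotted line for genes not listed in that line. For most genes shown the HCT116-labelled (circle) and SW480-labelled (square) controls lie side by side and apart from HT29 (triangle), while ABCC2, AXIN2 and VIM separate them.

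CDKN1A, MDM2 and ZMAT3, genes of growth control, were each higher in both labelled controls than in HT29. They are given as single genes and not as a summary of any list. The lists given next do not cover MDM2 or ZMAT3. Between the HCT116-labelled and HT29 controls, 7 of 20 G1 cyclin and cyclin-dependent kinase inhibitor genes were at least 2-fold apart. Of 15 EGF family ligands and receptors 5 were, beside 29.7% of all genes in that pair. CDKN1A, the cyclin-dependent kinase inhibitor p21, was at 214 CPM in the HCT116-labelled and 169 in the SW480-labelled control, against 36.3 in HT29. MDM2, a ubiquitin ligase, was at 299 and 187 CPM, against 104 in HT29, and its ratio interval between the labelled controls was 1.48-fold to 1.74-fold. ZMAT3, an RNA-binding zinc finger protein, was at 121 and 89.2 CPM, against 22.1 in HT29.

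None of 8 mismatch repair genes counted was at least 2-fold apart, beside 2.35% of all counted genes, so the count does not set the list apart, and MSH3 was at 11.7 and 20.2 CPM. SMAD4, the shared mediator of TGF-beta signals, was at 143 and 139 CPM, against 32.3 in HT29. The class I heavy chain HLA-B was at 262 and 273 CPM, against 37.9 in HT29. B2M, also of class I presentation, went the other way, at 593 and 631 CPM against 1217 in HT29. Of 17 MHC class I presentation genes, 4 were at least 2-fold higher in the HCT116-labelled control than in HT29, and 2 were higher in HT29. In that pair 29.7% of all genes were at least 2-fold apart either way. BZW2, the target of the other hairpin, was at 92.7 and 91.2 CPM in these control libraries and at 177 in HT29.

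Cell type markers of colorectal epithelium were fixed as a list of 13, of which 6 were listed in both lines. EPCAM, an epithelial adhesion protein, was at 326 CPM in the HCT116-labelled and 352 in the SW480-labelled control. E-cadherin (CDH1) was at 189.6 and 178 CPM, against 504 in HT29. The simple-epithelium keratins KRT8, KRT18 and KRT19 were at 1454, 1246 and 945 CPM in the HCT116-labelled and at 2424, 1755 and 1984 CPM in the SW480-labelled control. CDX2, the intestinal homeobox factor, was at 9.09 and 9.80 CPM, and CDH17 was listed in no line. Of 41 junction and polarity genes counted, 1 was at least 2-fold apart, beside 2.35% of all counted genes. It was the desmosomal cadherin DSC2, at 63.8 and 135 CPM. The list's median log2 ratio was -0.31, with 33 of 41 below 0. ZEB1, a repressor of E-cadherin, was at 11.2 and 12.4 CPM, and it was not listed in HT29.

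VIM, the intermediate filament protein of mesenchymal cells, was listed in SW480 alone of the 3 lines. It had 79 reads (15.8 CPM) in the SW480-labelled control and 12 CPM in the SW480 BZW2 shRNA library. No listed gene had fewer than 21 reads over the 2 libraries of a line. A blank was therefore taken as 20 reads or fewer, which the values themselves cannot show. In the HCT116-labelled control 20 reads are 3.50 CPM. If blanks are read this way, VIM was higher in the SW480-labelled control. There, more cells with the transcript and more of it per cell cannot be told apart in bulk RNA. Its level stood at about that of ZEB1 and far under that of CDH1.

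Of 24 mesenchymal genes counted, 7 were at least 2-fold higher in the SW480-labelled control and 0 in the HCT116-labelled control, where 1.29% and 1.06% of all counted genes were. The list's median log2 ratio was -0.39. Values are given for 6 of the 7. CCN1 and CCN2, matricellular proteins, were at 8.92 and 4.02 CPM in the HCT116-labelled and at 31.0 and 11.6 CPM in the SW480-labelled control. The membrane protease MMP14 was at 6.12 and 16.8 CPM. The caveolae proteins CAV1 and CAV2 were at 130.1 and 134 CPM in the HCT116-labelled and 264 and 273 CPM in the SW480-labelled control. COL1A1 had 11 reads (1.92 CPM) and 26 reads (5.20 CPM), with a fold interval of 1.29 to 6.06. It was the 1 gene counted of the blood, vessel and fibroblast markers, of which 2 were in the table. In the BZW2 shRNA pair, of 24 mesenchymal genes counted, 6 were at least 2-fold higher in HCT116, CCN1 and COL1A1 among them, and 7 in SW480. In that pair 25.7% and 28.0% of all genes were. Other members that HT29 did not list were close in the 2 controls: CALD1 was at 118 and 100.4 CPM, and QKI at 50.4 and 42.8 CPM.

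Of the 26 gene lists with at least 5 genes counted, hypoxia and glycolysis had the median farthest from 0, with its genes higher in the SW480-labelled control. Cells short of oxygen stabilise the HIF factors, which bind promoters at cores that include ACGTG and raise glucose uptake, glycolytic enzymes and mitophagy proteins. Of 33 list members counted, 15 were at least 2-fold higher in the SW480-labelled control and 0 in the HCT116-labelled control, beside 1.29% and 1.06% of all counted genes, and 31 of 33 had a log2 ratio below 0. The median log2 ratio was -0.97, beside -0.0035 over all genes. RefSeq promoter windows (GRCh38.p14), the 250 bases upstream of the annotated start, were available for 13 of the 15. The letters ACGTG, read on either strand with overlapping matches counted once, were present in 9 of the 13 (69.2%). They were present in 2 of 16 windows (12.5%) of the other members, and in 24.2% of the 8957 windows of counted genes. The members were grouped by their ratio, so these shares are a description. A match is not a bound site, and it does not tell which factor could bind. Promoters of 5 members at least 2-fold higher in the SW480-labelled control, each with more than 1 match, are shown to set their spacing side by side, with the matches in capitals, 5′ to 3′ on the strand of the gene. ANKRD37 is chr4:185396591-185396840, forward strand, ALDOC is chr17:28576896-28577145, reverse strand, HK2 is chr2:74833877-74834126, forward strand, LDHA is chr11:18394313-18394562, forward strand, and PGK1 is chrX:78103998-78104247, forward strand.
ANKRD37: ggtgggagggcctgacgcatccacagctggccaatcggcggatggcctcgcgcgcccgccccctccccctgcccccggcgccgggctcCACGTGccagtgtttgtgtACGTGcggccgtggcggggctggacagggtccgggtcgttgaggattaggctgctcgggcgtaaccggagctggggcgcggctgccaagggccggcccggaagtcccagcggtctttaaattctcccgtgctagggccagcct
ALDOC: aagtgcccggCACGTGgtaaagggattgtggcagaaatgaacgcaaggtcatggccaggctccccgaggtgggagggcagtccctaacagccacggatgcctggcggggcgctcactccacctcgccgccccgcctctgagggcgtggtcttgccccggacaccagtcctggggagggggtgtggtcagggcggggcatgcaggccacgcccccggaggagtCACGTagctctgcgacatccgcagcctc
HK2: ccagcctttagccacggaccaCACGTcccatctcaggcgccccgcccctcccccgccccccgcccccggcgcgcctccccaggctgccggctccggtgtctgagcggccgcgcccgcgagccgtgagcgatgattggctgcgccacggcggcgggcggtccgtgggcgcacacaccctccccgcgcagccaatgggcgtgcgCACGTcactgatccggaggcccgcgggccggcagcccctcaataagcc
LDHA: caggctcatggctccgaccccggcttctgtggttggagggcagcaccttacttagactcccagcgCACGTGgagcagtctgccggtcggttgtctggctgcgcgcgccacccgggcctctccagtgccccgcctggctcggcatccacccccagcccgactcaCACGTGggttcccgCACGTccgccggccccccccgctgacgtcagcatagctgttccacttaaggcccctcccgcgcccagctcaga
PGK1: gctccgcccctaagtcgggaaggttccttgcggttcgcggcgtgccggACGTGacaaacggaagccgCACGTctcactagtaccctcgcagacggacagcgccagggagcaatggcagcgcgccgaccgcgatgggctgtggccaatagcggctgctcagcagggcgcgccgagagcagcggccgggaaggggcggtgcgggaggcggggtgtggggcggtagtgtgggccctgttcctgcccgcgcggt

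SLC2A3 (ENSG00000059804), the high-affinity glucose transporter GLUT3, had the largest ratio of all counted genes. The gene spans positions 7919230 to 7936275 on the reverse strand of chromosome 12 (GRCh38), and SLC2A14 is a near-identical neighbour, so the split of their reads is uncertain. It had 123 reads (21.5 CPM) in the HCT116-labelled and 2369 reads (474 CPM) in the SW480-labelled control, 22.03-fold higher in the latter (interval 18.4 to 26.6), and was not listed in HT29. In the BZW2 shRNA libraries it was at 1.54 CPM in HCT116 and 22.2 CPM in SW480. The main glucose transporter SLC2A1 was at 397 and 1002 CPM in the HCT116-labelled and SW480-labelled controls. Hexokinase HK2, the first step of glycolysis, had 745 reads (130.3 CPM) and 1920 reads (384 CPM), 2.95-fold higher in the SW480-labelled control (2.71 to 3.21).

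Some enzymes along the rest of glycolysis were at least 2-fold higher in the SW480-labelled control, and others were within 2-fold. PFKFB4, which makes the activator of phosphofructokinase, was at 28.2 and 83.4 CPM, and the phosphofructokinase PFKP was at 212 and 452 CPM. The aldolases ALDOA and ALDOC were at 436 and 53.9 CPM in the HCT116-labelled and at 1038 and 154 CPM in the SW480-labelled control. PGK1, GPI and LDHA were at 686, 164 and 520.1 CPM in the HCT116-labelled and at 1382, 359 and 1174 CPM in the SW480-labelled control. The enolases ENO1 and ENO2 were at 2543 and 56.0 CPM, and at 5130.4 and 142 CPM. GAPDH, often taken as a reference gene, was at 2183 and 3992 CPM, within 2-fold. The list members HK1, PFKL, PFKM, PFKFB3, TPI1, PGAM1, PKM and LDHB were within 2-fold too.

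Of the hypoxia targets outside glycolysis, ANKRD37, NDRG1 and BNIP3 were at least 2-fold higher in the SW480-labelled control. ANKRD37, an ankyrin repeat protein induced by HIF, had 132 reads (23.1 CPM) and 346 reads (69.2 CPM), 3.0-fold higher in the SW480-labelled control (2.45 to 3.69). NDRG1, a stress-induced differentiation gene, was at 328 and 861 CPM, and the mitophagy receptor BNIP3 was at 76.2 and 176 CPM. The histone demethylase KDM3A, at 141 and 281 CPM, and the collagen hydroxylase P4HA1, at 387 and 711 CPM, were within 2-fold. VEGFA, the angiogenic factor that HIF induces, was at 68.7 and 64.2 CPM, and the lactate exporter SLC16A3 was at 321 and 255 CPM. These were the 2 of 33 members with a ratio above 0. Under the BZW2 hairpin the order of the libraries with the same line labels differed. The median of the list was 0.78 there, and HK2 was at 172 CPM in HCT116 and 40.9 CPM in SW480. The 2 pairs share no library, and the HCT116 BZW2 shRNA library stood apart. Its part in that difference was not tested. Culture density and oxygen are not given in the labels.

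**Figure D4:**
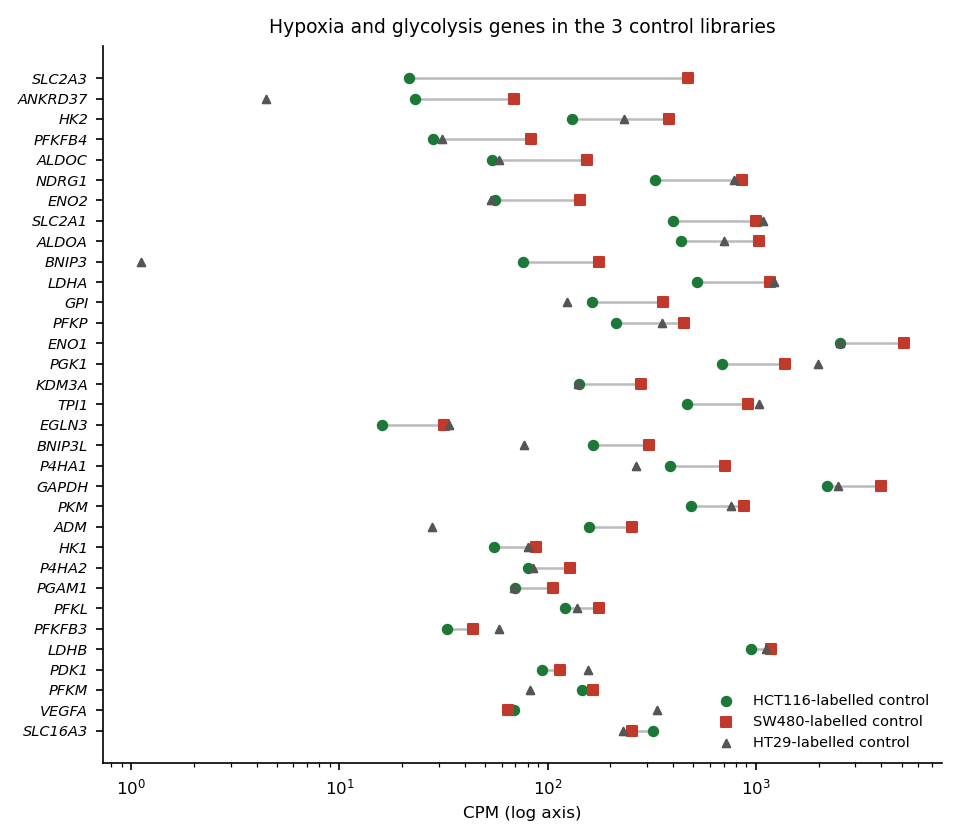
CPM (log axis) of the 33 counted hypoxia and glycolysis genes in the HCT116-labelled (circle), SW480-labelled (square) and HT29 (triangle) controls, ordered by the ratio of the first 2, with grey lines joining them. The square lies to the right of the circle for 31 of 33 genes, and VEGFA and SLC16A3 at the bottom are the exceptions.

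The 15 genes named for the largest ratios towards the SW480-labelled control included SLC2A3, HK2, ALDOC and ANKRD37 of the hypoxia and glycolysis list. Outside that list they included enzymes and surface proteins. PAICS, an enzyme of purine synthesis, had 240 reads (42.0 CPM) and 1276 reads (255 CPM), 6.08-fold higher in the SW480-labelled control (5.29 to 7.01), and was at 262 CPM in HT29. In the BZW2 shRNA libraries PAICS was at 227 CPM in HCT116 and 334 CPM in SW480, so the HCT116-labelled control was the low library of these. IQGAP2, a scaffold protein, was at 13.1 and 51.8 CPM. ANGPTL4, a lipase inhibitor, was at 30.8 and 109 CPM. The transglutaminase TGM2 was at 20.1 and 70.2 CPM, and the transcription factor ETS1 was at 20.3 and 68.6 CPM. The clock repressor BHLHE40, the membrane protein EMP1 and the APP relative APLP2 were at 29.6, 52.8 and 175 CPM in the HCT116-labelled and at 96.4, 171 and 504 CPM in the SW480-labelled control. The log2 ratios of these 3 genes were -1.69, -1.69 and -1.52.

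Wnt targets held 4 genes at least 2-fold higher in the SW480-labelled control of 20 counted, and 0 the other way, beside 1.29% and 1.06% of all counted genes, with a list median of -0.27. AXIN2, a feedback inhibitor of beta-catenin, was at 5.95 CPM in the HCT116-labelled, 29 in the SW480-labelled and 37.2 in the HT29 control, with a log2 ratio of -2.22 between the first 2. NKD1 and NOTUM, also feedback inhibitors, were at 10.5 and 5.77 CPM in the HCT116-labelled and at 32.2 and 15.6 CPM in the SW480-labelled control. TNFRSF19, a stem cell marker, was at 7.34 and 18.8 CPM. In the BZW2 shRNA libraries AXIN2 was at 12.3 CPM in HCT116 and 12.6 CPM in SW480. MYC, a further Wnt target, was at 120 and 131 CPM in the 2 controls, and cyclin D1 (CCND1) was at 726 and 724 CPM.

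Towards the HCT116-labelled control the 15 named genes ranged from 1.97-fold (USP40) to 5.12-fold (SEMA3A). SEMA3A, a secreted axon guidance protein, had 1153 reads (202 CPM) against 197 reads (39.4 CPM), 5.12-fold higher in the HCT116-labelled control (4.40 to 5.98). EXOSC6, a subunit of the RNA exosome, was 2.81-fold higher (2.33 to 3.40), with 482 and 150 reads. ABCC2, an efflux pump for drug conjugates, was at 117 and 43.2 CPM, and it was not listed in HT29. The stress-induced cytokine GDF15 was at 571 and 217 CPM, 2.63-fold higher (2.46 to 2.82), and the transferrin receptor TFRC was at 621 and 253 CPM, 2.45-fold higher (2.30 to 2.62). BRCA1, of homologous recombination, was at 96.5 and 45.0 CPM. The other genes of the 15 had log2 ratios from 0.97 (USP40) to 1.17 (ANKRD36C), with RAP1GAP2, a Rap1 regulator, at 1.10.

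**Figure D5:**
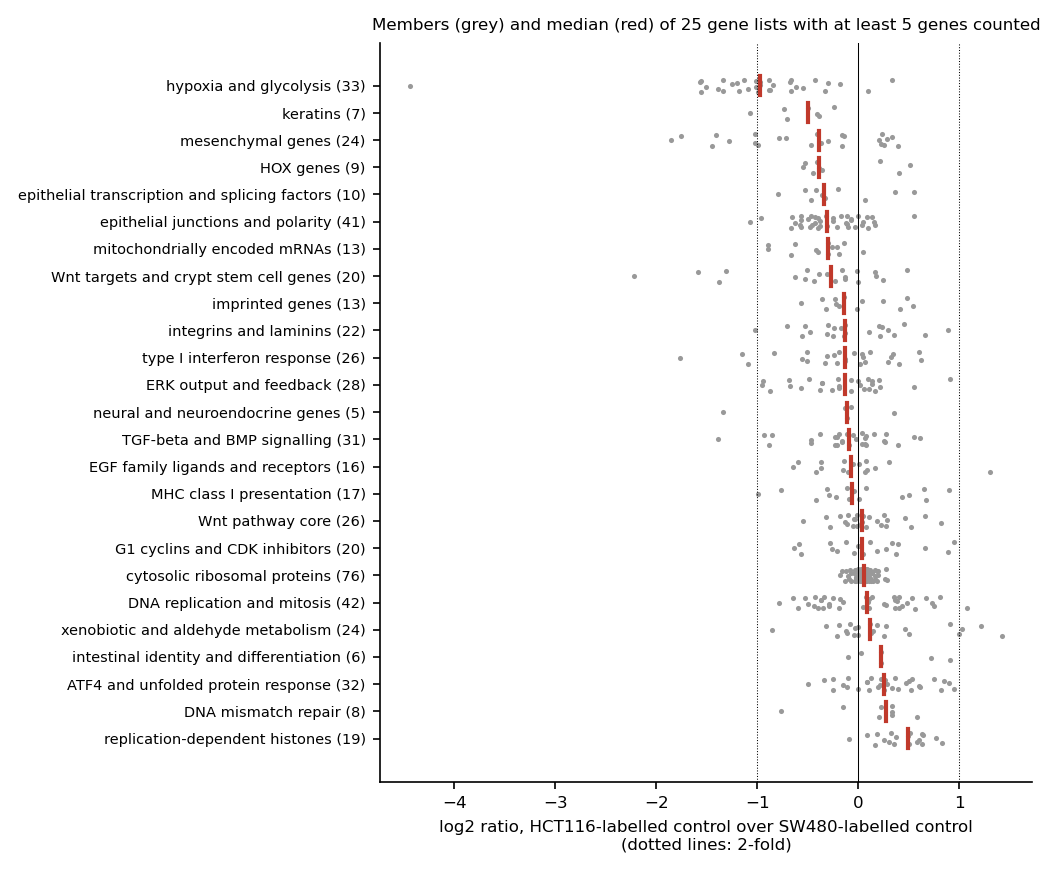
Log2 ratio of the HCT116-labelled over the SW480-labelled control (horizontal axis, dotted lines at 2-fold) for the counted members (grey) and the median (red) of 25 gene lists with at least 5 genes counted, the number in brackets. Hypoxia and glycolysis lies farthest from 0, with a median of -0.97, and histones farthest the other way, with 0.50.

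Of the lists not described above, none had more than 3 members at least 2-fold apart. Among 24 xenobiotic genes 3 were at least 2-fold higher in the HCT116-labelled control, beside 1.06% of all counted genes: ABCC2, the stem cell efflux pump ABCG2 (7.0 and 2.80 CPM) and the ketosteroid reductase AKR1C1 (6.12 and 2.80 CPM). Among 26 interferon response genes 3 were at least 2-fold higher in the SW480-labelled control, beside 1.29% of all counted genes: the viral entry inhibitors IFITM1 (3.67 and 13.4 CPM), IFITM2 (8.57 and 19.4 CPM) and IFITM3 (31.5 and 67.6 CPM). The remaining 23 were closer, such as IFI6 at 53.7 and 52.0 CPM against 338 in HT29, and SAMD9 at 46.9 and 35.4 CPM against 566 in HT29. Between the HCT116-labelled and HT29 controls, 22 of the 26 interferon genes were at least 2-fold apart, 21 of them higher in HT29 and 1 in HCT116, beside 29.7% of all genes in that pair either way.

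Of the 26 lists with at least 5 genes counted, 13 had no member at least 2-fold apart, beside 2.35% of all counted genes, and 4 of the 13 are described next. The 19 replication-dependent histone genes had a median log2 ratio of 0.50, with 18 above 0, and H3C12 was at 75.5 and 42.2 CPM. Histone copies are near-identical, as are the MAGEA, keratin KRT81 and tubulin genes to their relatives, so the split of reads within these families is uncertain. The 32 genes of the ATF4 and unfolded protein response had a median of 0.26. Its chaperone member HSP90B1 was at 6396 and 3804 CPM, and the cystine transporter SLC7A11 was at 474 and 253 CPM. The 76 cytosolic ribosomal protein genes ranged from -0.18 (RPS24) to 0.28 (RPS10). The 13 mitochondrially encoded mRNAs had a median of -0.30, with MT-ND4 at 263 and 488 CPM.

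Median log2 ratios of the 22 autosomes and X ranged from -0.09 on chromosome 19 to 0.05 on chromosome 15. Over 217 windows of 10 Mb with at least 20 counted genes (GRCh38), window medians ranged from -0.23 to 0.25, and 1 window reached 0.25. Between the HCT116-labelled and HT29 controls, chromosome medians ranged from -0.65 on chromosome 13 to 0.66 on chromosome 8, and 96 of 210 windows reached 0.25 in either direction. The log2 ratio of the labelled controls had a Spearman correlation of 0.10 with transcript length and -0.056 with GC content across genes.

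Genes listed in 1 of the lines only were few and low. HCT116 alone of the pair listed 157 genes, at a median of 3.15 CPM in its control, and 20 of them reached 5 CPM. The highest were the antisense RNA TARID (107 reads, 18.7 CPM), keratin KRT7 (97 reads, 16.96 CPM), the sodium channel SCN9A (14.3 CPM) and the transcription cofactor EYA4 (14.2 CPM). SW480 alone listed 388 genes, at a median of 3.0 CPM, and 48 reached 5 CPM. The highest were the hair keratin KRT81 (142 reads, 28.4 CPM), the ectonucleotidase ENTPD8 (23.2 CPM), VIM, the tubulin TUBB2B (13.6 CPM) and apolipoprotein APOE (12.6 CPM). A blank is not a 0. The inferred limit of 20 reads would stand for 4.0 CPM in the SW480 and 3.50 CPM in the HCT116 control. It applies to both libraries of a line together, and the BZW2 shRNA library held 2187373 reads in HCT116 and 6105605 in SW480. How far depth made the difference between 157 and 388 genes was not tested. KRT81 and ENTPD8 were at 1.46 and 0.439 CPM in the SW480 BZW2 shRNA library. TARID and KRT7 were at 0.513 and 18.5 CPM in the HCT116 BZW2 shRNA library.

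Between the BZW2 shRNA libraries with the same line labels the difference was wider, with 53.7% of 11028 genes at least 2-fold apart. The HCT116 BZW2 shRNA library held 2187373 reads, with 129 listed genes at 0, and the SW480 BZW2 shRNA library held 6105605. The log2 ratio of that pair had a Spearman correlation of 0.73 with GC content and -0.21 with transcript length across genes. How far depth or GC content made these differences was not tested. Of the 119 genes at least 2-fold higher in the HCT116-labelled control, 82 were counted there, 33 of them at least 2-fold apart the same way and 19 at least 2-fold the other way. Of the 144 higher in the SW480-labelled control, 126 were counted, 41 at least 2-fold the same way and 28 the other way. With 25.7% and 28.0% of genes past 2-fold in each direction in that pair, these counts are read against a wide background. SLC2A3, IQGAP2, TGM2, EMP1 and ETS1 were at least 2-fold higher in the library labelled SW480 in both pairs. RAP1GAP2 was at least 2-fold higher in the library labelled HCT116 in both. Which line each BZW2 shRNA library came from was not tested either. NUP210, a nuclear pore protein, was 1.98-fold higher in the HCT116-labelled control, with a log2 ratio of 2.09 in the other pair.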

How the data were processed

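RNA was sequenced in 6 libraries, and groups were taken from the cell line and treatment labels. Per the submitters' processing notes, the tools were bcl2fastq 2.17, STAR 2.5.2b and DESeq, with build GRCh38. For the gene counter, annotation and strandedness, nothing is given in the sources used here. Reads of overlapping, antisense and near-identical genes therefore cannot be told apart. The values deposited by the authors are a normalised signal, made from gene counts with size factors. Its values showed that the factors were set per line, so values of different lines were not on 1 scale.

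Whole reads were recovered by dividing each column by its step, and 100% of values were whole within 0.1 read. The smallest SW480 control value stood for 2 reads. Listed genes had at least 21 reads over the 2 libraries of a line. Of 13040 identifiers, 19 with repeated rows were left out. Symbols matched 13003 of the remaining 13021, and GENCODE 29 matched 13018. Library sizes were summed over genes listed in both lines, and TMM factors came from edgeR 4.0.16 in R 4.3.3. CPM of HT29 came from scaling the 3 controls together, and CPM of the BZW2 shRNA libraries from scaling that pair. The log2 ratio used a prior count of 2. Counting intervals are exact Clopper-Pearson at 95%, and they cover counting error only. The ratio and its interval were tested on simulated counts with sampling noise alone, which is what the interval assumes. Wider spread between libraries was therefore not part of that test.

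Genes named were the 15 of largest ratio each way whose higher library reached 50 CPM and whose lower library held at least 3 reads, the 10 highest listed in 1 line only, up to 5 members of each of 28 gene lists, and a set of key genes. Other members were named beside them after their values were seen. The comparison, members and lists were chosen with earlier results of these data known. Promoter sequences are RefSeq windows of GRCh38.p14. Some genes and 1 list that the rule names are not reported here.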

Additional observations from a re-analysis of the deposited data

Results flagged for a closer look

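Of the 30 genes named for the largest ratios, 6 changed direction between the pairs. They were at least 2-fold apart 1 way in the control pair and at least 2-fold the other way in the BZW2 shRNA pair. Of all genes at least 2-fold higher in the HCT116-labelled control, 19 of the 82 counted in both pairs did so. Of those higher in the SW480-labelled control, 28 of 126 did, so the count does not set the named genes apart. The difference between the pairs was not tested, with 1 library a side, and the HCT116 BZW2 shRNA library stood apart from every other library. ANKRD36C had a log2 ratio of HCT116 over SW480 of 1.17 with the control hairpin and -3.16 with the BZW2 hairpin. The latter rests on 6 reads in the HCT116 BZW2 shRNA library. The zinc finger genes ZNF780B and ZNF33B were at 1.03 and 1.03 in the control pair, and at -2.14 and -1.70 in the BZW2 shRNA pair. ABCC2 was at 1.43 and then -1.90, with 34.4 CPM in HCT116 and 129.9 CPM in SW480 under the BZW2 hairpin. The olfactory receptor gene OR51B4 was at 1.11 and then -1.42. HK2 went the other way, from -1.56 to 2.06.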

How the results depend on the processing

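The count of genes at least 2-fold apart was 119 towards the HCT116-labelled and 144 towards the SW480-labelled control. A CPM minimum of 10 left 79 towards the HCT116-labelled control. A fold minimum of 4 left 6 and 8, and requiring the counting interval to lie past 2-fold left 19 and 55. By library size alone the counts were 145 and 121, so which side held more genes depended on the scaling. The other alternatives (DESeq2 size factors from version 1.42.0, no CPM minimum, a prior count of 0.5, removal of a trend on length and GC content, protein-coding genes alone) kept both counts within 1.5 times. Chosen after seeing the data: over genes with a mean CPM of at least 50, the share at least 2-fold apart was 0.962% in place of 1.93%, and by library size alone 2.0%. The hypoxia list median ranged from -0.98 to -0.93 over its alternatives, and no named gene at least 2-fold apart changed sign under any of the 4 settings run. A fit over both hairpins, with line and hairpin as terms, was not made. Depth limits low genes: 20 reads are 3.50 CPM in the HCT116-labelled and 4.0 CPM in the SW480-labelled control.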
